A study of Mus musculus with 9 samples.

Results

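The cells described here are CD11b+ cells of the bone marrow from mice injected with PBS, the vehicle of the study. They were chosen by their label: the 3 libraries labelled PBS, out of 9 samples in the series, with no use of any measured value. The mice were male C57BL/6 animals, supplied at 3 to 6 weeks of age. Each received 100 µl of PBS by tail vein on days 1, 3 and 5, and marrow was taken 24 h after the last injection. Marrow came from femurs and tibias, red cells were lysed, and CD11b+ cells were positively selected with a commercial kit (EasySep). The other 6 samples, from mice given extracellular vesicles with or without nanoparticles, were not analysed here. All values therefore describe vehicle-injected mice, which are not the same as mice left uninjected, and the age at harvest is given only through the age at supply.

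CD11b is the product of Itgam, the alpha chain of an integrin that pairs with the Itgb2 chain and lets myeloid cells bind to complement-coated particles and vessel walls. In the marrow it is carried chiefly by neutrophils and their precursors, by monocytes, and at lower density by eosinophils, macrophages and some NK cells, so a selection on it can keep all of these. Developing neutrophils make their granules in waves. Azurophil granule proteins come first, in promyelocytes, specific granule proteins follow in myelocytes and metamyelocytes, gelatinase granule proteins come later, and receptors for chemoattractants appear as the cells mature.

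Counts of reads per gene were turned into CPM, that is counts scaled to the library's total without the ribosomal RNA gene Rn45s, and for comparisons between genes into RPKM, CPM per kilobase of exon. With 3 mice and no second group no test was made, and every spread below is the SD or the coefficient of variation (CV, the SD as a percent of the mean) over the 3 mice. The methods give 3 mice per group, and each library was taken as a mouse. RNA of a mixed cell suspension was measured, so fewer cells of a type and less RNA per cell cannot be told apart.

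One library stood apart from the other two. Total counts were 6006087 in PBS replicate 1, 16381679 in PBS replicate 2 and 15972757 in PBS replicate 3, and Rn45s took 20.3%, 1.57% and 1.17% of them, although the authors had filtered reads that align to rRNA. Small RNA genes summed to 18495 CPM in PBS replicate 1, against 3115 and 2549 CPM in the others. A single gene, Rpph1, gave most of each sum, with 14702, 2299 and 1797 CPM in PBS replicates 1, 2 and 3. Across the 8041 genes with a mean of at least 10 CPM, log2 CPM correlated across genes at r = 0.996 between PBS replicates 2 and 3, and at 0.935 and 0.929 between PBS replicate 1 and each of them. Genes are not independent replicates, so these are descriptions. Between PBS replicates 2 and 3 the chi-square per gene, over 13065 genes, had a mean of 3.77 and a median of 1.00. Between PBS replicate 1 and each of them, over 11604 and 11752 genes, the means were 66.4 and 68.2 and the medians 5.81 and 5.57. Counting noise alone would give a mean near 1 and a median clearly below 1, so the values lay above it in every pair. The chi-square compares libraries with counting noise alone and does not tell separate mice from repeat preparations. The libraries were counted as the labels give them. Most levels are therefore given for each mouse, in the order PBS replicate 1, 2 and 3.

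At least 3 counts, the floor used for detection, were found in every library for 12290 of 23336 genes, and 6610 genes had 0 counts in all of them. That floor stands at 0.626 CPM in PBS replicate 1, 0.186 CPM in PBS replicate 2 and 0.190 CPM in PBS replicate 3, and covers counting error only. Genes detected per library numbered 12552, 13854 and 14047. Thinned to the depth of the smallest library, the expected numbers were 12552, 12363 and 12587, so the libraries held closely similar numbers of genes at equal depth. A mean of at least 1000 CPM was reached by 75 genes, at least 100 by 2182 and at least 1 by 11720. The 10 highest genes of each library took 11.4%, 15.8% and 15.2% of its counts, and 677, 541 and 573 genes were needed to reach 50%. PBS replicate 1 had the flattest distribution of the 3.

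The labelled cell type was first checked against its markers. Itgam stood at 1648, 2010 and 1919 CPM in PBS replicates 1, 2 and 3, a mean of 1859 ± 188 (SD, n = 3), which placed it 27th of all genes by mean CPM. Its partner Itgb2 stood at 1761, 1660 and 1589 CPM. Among the other markers, S100a8, S100a9 and Ngp were all within the 5 highest genes by mean CPM. The remaining one, Ly6g, has no row in the counts and was not analysed here. All 9 measured genes of the granulocyte identity list were detected in every mouse, with Csf3r, the G-CSF receptor, at 496, 790 and 848 CPM. Cebpe, the factor needed for the late steps of granulocyte maturation, stood at 101, 206 and 208 CPM. The label thus went together with high levels of CD11b and of neutrophil genes in each of the 3 mice, though the size of several of them differed between PBS replicate 1 and the others.

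The gene with the highest mean was S100a9, which with S100a8 encodes calprotectin, the calcium-binding complex that fills the neutrophil cytosol. S100a9 held 11738 CPM in PBS replicate 1, 39346 CPM in PBS replicate 2 and 39182 CPM in PBS replicate 3, a mean of 30089 ± 15892 (SD, n = 3). S100a8 held 7398, 28571 and 28922 CPM. PBS replicate 1 was the low mouse for both, with PBS replicates 2 and 3 close together. The level per length of S100a9 exceeded that of S100a8 by 2.11, 1.83 and 1.80 times in the 3 mice (1.52, 1.32 and 1.30 times with the longest transcript), so their ratio varied much less than either gene. They lie on chromosome 3, S100a9 at chr3:90692632-90695721 and S100a8 at chr3:90668978-90670035 (GRCm38), 22.6 kb apart. Per length, S100a6, the next of the S100 genes, stood at 632, 673 and 614 RPKM, and S100a4 at 228, 240 and 218 RPKM. For both of these PBS replicate 1 lay between the other mice.

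Genes of the specific granules formed the other block of high levels. Ngp, the neutrophilic granule protein of the cathelicidin-like family, held 15163, 15718 and 13926 CPM, and Camp, the cathelicidin precursor, 8287, 8378 and 7808 CPM. With CVs of 6.14% and 3.76% these varied little between mice, and PBS replicate 1 lay between the other two for each of them. Ltf, which encodes the iron-binding lactoferrin, held 14551, 19356 and 18005 CPM, lowest in PBS replicate 1. Per length, Camp stood at 0.881, 0.859 and 0.904 of the level of Ngp. The corresponding ratio of S100a8 to Ngp was 0.859 in PBS replicate 1 and 3.20 and 3.66 in the others. With the length of the longest transcript in place of the exon union it was 1.20, 4.46 and 5.10, so S100a8 lay below Ngp in PBS replicate 1 only by the exon union. Camp, Ngp and Ltf all lie on chromosome 9, at chr9:109847379-109849617, chr9:110419747-110423012 and chr9:111019271-111042767, with gaps of 570 kb and 596 kb.

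Promoters are shown for 4 of these genes, S100a8 and S100a9 as an abundant pair with high CVs (57.0% and 52.8%), and Ngp and Camp as an abundant pair with low ones. Each runs from 250 bases before the start to 50 after it, 5′ to 3′, from RefSeq on GRCm38.p6. Capitals mark TTGCNNAA, the core letters of sites for C/EBP factors, or TATAAA, the TATA box. Both were searched on both strands, and the matches shown do not overlap.
S100a9, chr3:90695672-90695971, strand minus: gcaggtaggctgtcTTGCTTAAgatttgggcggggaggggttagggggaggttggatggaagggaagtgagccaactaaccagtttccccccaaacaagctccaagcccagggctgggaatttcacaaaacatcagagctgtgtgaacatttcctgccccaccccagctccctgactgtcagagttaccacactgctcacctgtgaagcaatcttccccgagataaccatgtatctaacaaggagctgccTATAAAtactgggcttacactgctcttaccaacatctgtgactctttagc
S100a8, chr3:90668821-90669120, strand plus: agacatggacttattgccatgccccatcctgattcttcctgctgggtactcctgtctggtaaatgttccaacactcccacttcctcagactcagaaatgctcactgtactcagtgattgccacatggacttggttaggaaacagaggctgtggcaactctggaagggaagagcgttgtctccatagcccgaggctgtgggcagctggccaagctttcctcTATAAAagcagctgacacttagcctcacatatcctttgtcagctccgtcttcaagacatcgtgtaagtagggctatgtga
Ngp, chr9:110419558-110419857, strand plus: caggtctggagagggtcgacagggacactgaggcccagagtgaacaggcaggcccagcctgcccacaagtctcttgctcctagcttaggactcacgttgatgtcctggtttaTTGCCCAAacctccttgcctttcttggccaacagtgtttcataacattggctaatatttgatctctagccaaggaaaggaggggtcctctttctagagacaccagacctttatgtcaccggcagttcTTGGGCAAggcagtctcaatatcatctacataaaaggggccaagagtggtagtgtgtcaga
Camp, chr9:109849407-109849706, strand minus: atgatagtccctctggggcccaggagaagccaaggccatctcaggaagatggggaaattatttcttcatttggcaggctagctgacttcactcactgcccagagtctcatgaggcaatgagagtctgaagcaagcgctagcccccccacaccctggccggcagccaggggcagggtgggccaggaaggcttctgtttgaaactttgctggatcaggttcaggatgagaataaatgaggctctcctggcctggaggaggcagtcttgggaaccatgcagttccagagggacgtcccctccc

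TTGCNNAA was matched once in S100a9, 236 bases before the start, and at 2 places in Ngp, 138 and 11 bases before it. Ltf, not shown, had a match 75 bases before its start. S100a9 held TATAAA at its annotated start, and S100a8 30 bases before its own. S100a8 also held GAGGAAGT, letters of sites for the factor encoded by Spi1, 172 bases before it. Camp held none of the 3 motifs in this window, which says only that these letters are not there. Of all 32851 promoters in the table, 10.8% held TTGCNNAA, 3.20% GAGGAAGT and 13.6% TATAAA. Promoters were found for 83 of the 100 protein-coding genes with the highest mean CPM, 98 promoters in all. Of these, 15.3% held TTGCNNAA, 5.10% GAGGAAGT and 20.4% TATAAA. Among promoters of protein-coding genes detected in every mouse the shares were 8.71%, 3.29% and 7.32%. For the specific granule list 5 of 14 promoters held TTGCNNAA, 3 GAGGAAGT and 4 TATAAA. For the azurophil list these were 2, 4 and 2 of 9, and for the gelatinase list 2, 0 and 1 of 4. A match is a run of letters and not a bound site, and with numbers this small the shares are descriptions.

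**Figure D1:**
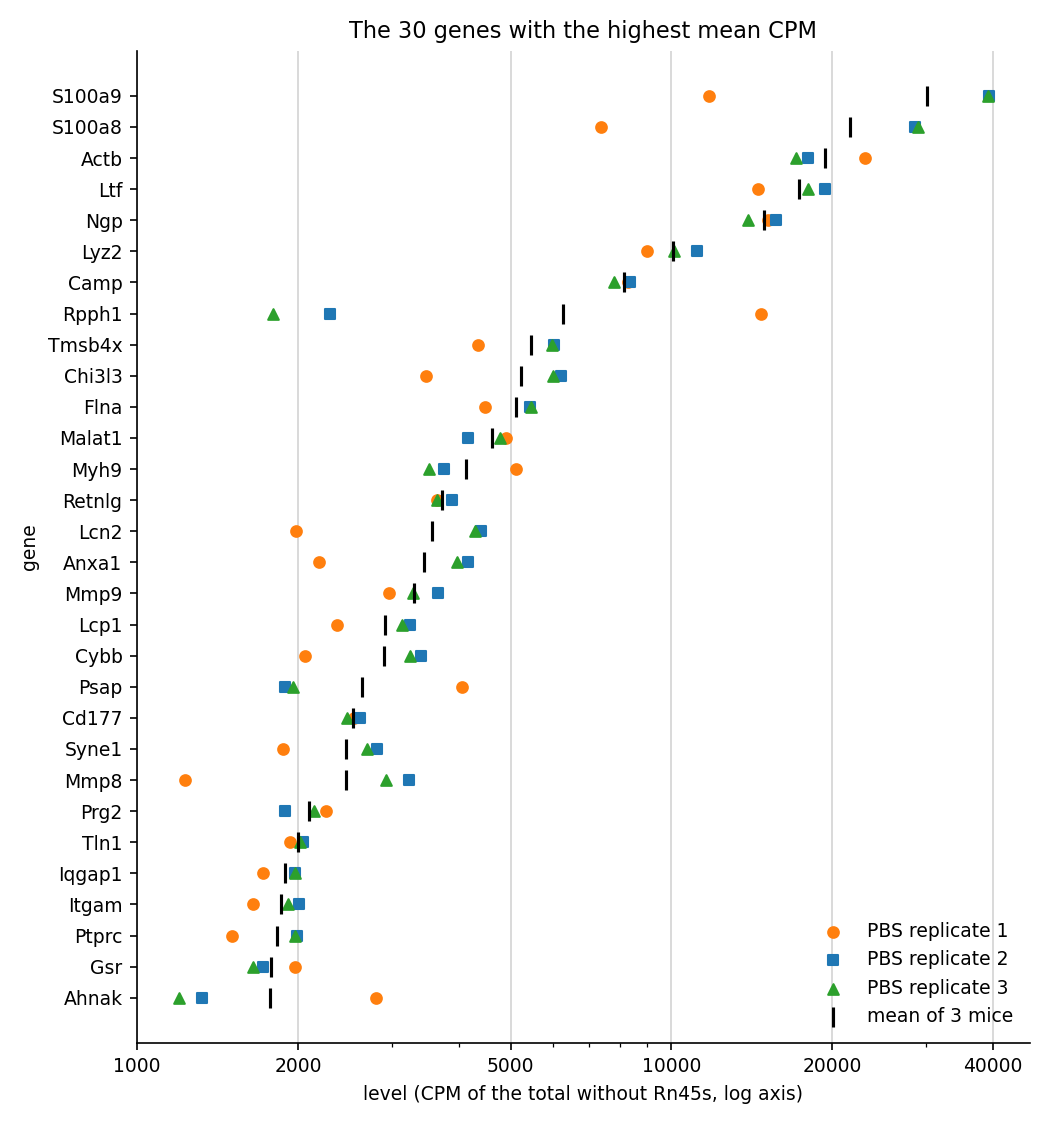
Levels of the 30 genes with the highest mean CPM in each of the 3 PBS mice, in CPM on a log axis, with the mean of the 3 as a vertical bar. For S100a9, S100a8, Lcn2 and Mmp8 PBS replicate 1 lies well to the left of the other mice, for Rpph1, Psap and Ahnak well to the right, and for Camp, Retnlg and Cd177 the 3 mice nearly coincide.

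Ordered by level per length, the mean RPKM ran from S100a9 (57642) and S100a8 (31168) through Rpph1 (19643), Ngp (12222), Camp (10762), Lyz2 (7667), Actb (7234), Retnlg (6280) and Ltf (5016) to Tmsb4x (3976). The spread between mice did not separate all neighbours in this order. Lyz2, the lysozyme of myeloid cells, stood above Actb in PBS replicates 2 and 3 and below it in PBS replicate 1, with 6838, 8476 and 7687 RPKM against 8602, 6717 and 6382 RPKM. Rpph1, the RNA of ribonuclease P, ranked 1st by RPKM in PBS replicate 1 and 6th and 8th in the others, so its place in the mean order rests on that one mouse. S100a9 and S100a8 ranked 2nd and 5th by RPKM in PBS replicate 1 and 1st and 2nd in the others. Ngp was 3rd and Camp 4th in every mouse. These ranks hold for the exon union: with the longest transcript S100a8 was 3rd, Ngp 4th, Actb 5th and Camp 6th in PBS replicate 1, and Actb stood above Lyz2 in every mouse. Cytoskeletal genes were represented by Actb and by Tmsb4x, which encodes an actin-binding thymosin. Retnlg, a resistin-like gene of neutrophils, was steady among the highest genes, at 3641, 3886 and 3644 CPM.

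The 16 genes of the specific granule list, all detected, summed to 51613, 65314 and 60642 CPM. Within the list the members fell into 3 patterns. Chi3l3, a chitinase-like protein, held 3475, 6203 and 5998 CPM, Lcn2, the siderophore-binding lipocalin, 1987, 4403 and 4289 CPM, and Mmp8, the neutrophil collagenase, 1228, 3228 and 2921 CPM. For each of these PBS replicate 1 was far below the other mice. Cd177, a surface protein held in granules, stood at 2542, 2613 and 2468 CPM, haptoglobin (Hp) at 1270, 1343 and 1287 CPM and Anxa3 at 250, 255 and 250 CPM, with no mouse apart. Olfm4, at 247, 175 and 155 CPM, and Lrg1, at 370, 245 and 238 CPM, were higher in PBS replicate 1. In all 6 of the 16 members lay higher in PBS replicate 1 than the mean of the others and 10 lower, where 57.3% of all 8041 genes at 10 CPM or more lay higher. That share is the background for each later count of list members higher or lower in PBS replicate 1. The lists also hold members under 10 CPM, which it does not cover. Over the 12149 detected genes with an exon length, at any level, the share was 57.9%.

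Azurophil granule genes were present at lower levels. The 10 genes of that list summed to 3505, 2847 and 3192 CPM. Per length, Elane, neutrophil elastase, stood at 371, 303 and 344 RPKM and Mpo, myeloperoxidase, at 419, 264 and 325 RPKM, so that their order differed between mice. Prtn3, proteinase 3, stood at 342, 206 and 232 CPM. For 7 of the 10 (70%) the level was higher in PBS replicate 1, beside 57.3% of all 8041 genes, and Serpinb1a, an inhibitor of these proteases, was the clearest exception at 283, 542 and 536 CPM. The 5 gelatinase granule genes summed to 7659, 9108 and 8493 CPM. Mmp9, the gelatinase itself, held 2956, 3660 and 3277 CPM, and Adam8, a surface protease, 397, 802 and 849 CPM. Median levels per length were 119, 109 and 130 RPKM for the azurophil list, 387, 550 and 521 RPKM for the specific list and 85.5, 173 and 183 RPKM for the gelatinase list. The azurophil and gelatinase lists thus changed places in PBS replicate 1. For all genes at 10 CPM or more the median of the mean levels was 10.5 RPKM.

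Genes of late neutrophils were all detected, 22 of 22. Cxcr2, the receptor that draws mature neutrophils out of the marrow, held 396, 694 and 688 CPM, and Fpr1, a formyl peptide receptor, 84.8, 278 and 283 CPM. Both were lower in PBS replicate 1, as were 15 of the 22 members. Others were not: Mxd1, a partner of Max that opposes Myc, held 1373, 1294 and 1185 CPM, 1100001G20Rik, a gene of a small secreted protein, 1354, 947 and 891 CPM, and Il1b 331, 260 and 310 CPM. Cxcr4, the receptor that retains cells in the marrow, stood at 320, 302 and 277 RPKM, above Cxcr2 at 130, 228 and 226 RPKM in each mouse.

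The phagocyte oxidase genes were high and all 8 were detected. Cybb, its membrane-bound catalytic chain, held 2064, 3400 and 3246 CPM, and Cyba, the other membrane chain, 434, 441 and 432 CPM. Of the cytosolic subunits, Ncf1 held 1514, 1907 and 1786 CPM and Ncf4 201, 396 and 409 CPM. All but Rac1, at 436, 312 and 294 CPM, were lower in PBS replicate 1 than the mean of the others, though for Cyba the mice nearly coincided. Anxa1, an annexin abundant in neutrophil cytoplasm, was the highest of the annexins with 2193, 4154 and 3969 CPM. Fc receptor genes showed 2 patterns, with Fcer1g, the shared signalling chain, at 351, 334 and 327 CPM and the IgG receptor gene Fcgr3 at 182, 440 and 447 CPM.

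**Figure D2:**
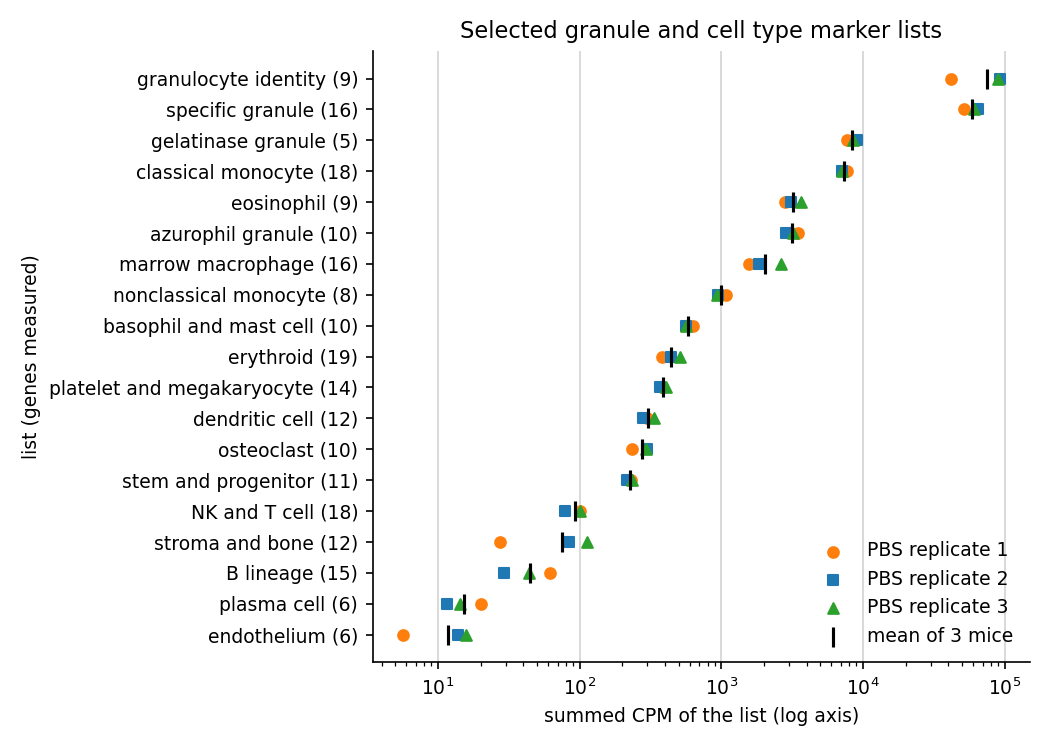
Summed CPM of selected granule and cell type marker lists, some of which share genes, in each of the 3 PBS mice, on a log axis, with the number of measured genes in brackets and the mean as a vertical bar. By mean, the granulocyte identity list is highest, between 41658 and 92657 CPM, though the specific granule list lies above it in PBS replicate 1 at 51613 CPM, and the endothelium list lowest, between 5.64 and 15.7 CPM, though the plasma cell list lies below it in PBS replicates 2 and 3.

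Monocyte genes were present in every mouse. All 18 classical monocyte genes were detected and summed to 7695, 7105 and 7094 CPM. Ccr2, the receptor that brings monocytes out of the marrow, held 717, 582 and 600 CPM, and Ly6c2, which encodes the surface antigen Ly6C, 267, 536 and 504 CPM. F13a1, coagulation factor XIII, held 1010, 592 and 576 CPM and Fn1, fibronectin, 1783, 1324 and 1312 CPM. Csf1r, the M-CSF receptor, held 452, 365 and 366 CPM. For 11 of the 18 (61.1%) the level was higher in PBS replicate 1 and for 7 lower, Ly6c2 among the latter, a share near the 57.3% over all genes. Within each mouse the level per length of Csf3r was 1.76, 3.46 and 3.71 times that of Csf1r, lowest in PBS replicate 1. The 8 nonclassical monocyte genes summed to 1079, 955 and 931 CPM, with Spn and Itgal, which other leukocytes share, holding most of it.

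Eosinophil genes were also found. Prg2, the major basic protein of eosinophil granules, stood at 2258, 1892 and 2141 CPM and ranked 13th by mean RPKM, above Lcn2. Epx, eosinophil peroxidase, held 238, 466 and 559 CPM, and Ccr3, the eotaxin receptor, 39.1, 62.0 and 91.0 CPM. The ribonuclease genes Ear1 (44.5, 275 and 341 CPM) and Ear6 (4.18, 75.2 and 95.5 CPM) were far lower in PBS replicate 1. They belong to a family of near-identical copies among which counting could split reads, so their levels are uncertain. Of the 9 measured eosinophil genes, 8 were lower in PBS replicate 1 and Prg2 was not, so Prg2 and the remaining members ranked the mice differently. Basophil and mast cell genes were detected for 7 of 10 members. Prss34, a basophil protease, held 194, 59.5 and 64.2 CPM and Mcpt8 38.0, 29.7 and 32.2 CPM, while the mast cell proteases Tpsb2 and Mcpt4 had 0 counts in all 3 libraries.

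Marrow macrophage genes were all detected, 16 of 16, and here PBS replicate 3 was the high mouse. Their sum was 1559, 1852 and 2651 CPM. Vcam1, which retains cells at the macrophage surface, held 245, 295 and 444 CPM, Mrc1, the mannose receptor, 102, 132 and 225 CPM, and Hmox1, which degrades heme, 105, 181 and 286 CPM. Spic, the factor of iron-recycling macrophages, held 7.10, 17.8 and 28.9 CPM, Timd4 1.46, 4.47 and 10.8 CPM, and the lectin gene Cd209f 0.835, 4.28 and 7.98 CPM. For these the order was PBS replicate 1, then 2, then 3. C1qb, Cd5l, Axl and Cd163 broke it, all lowest in PBS replicate 2, as C1qb with 74.8, 50.6 and 76.3 CPM. Of the 10 genes that stood highest in PBS replicate 3 against the mean of the other two, Spic was a member of this list, Cxcl12, Ppbp and Vwf belonged to the stroma and platelet lists, and Ear6 to the eosinophil list.

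Genes of lymphoid, plasma and erythroid cells were low. The 15 B lineage genes summed to 62.0, 29.1 and 43.8 CPM. Cd79b, part of the B cell receptor, was the highest of them by mean RPKM, at 6.47, 10.9 and 13.3 CPM. Dntt, an enzyme of early lymphocytes, at 8.14, 1.36 and 1.52 CPM, and Rag1, at 6.89, 1.86 and 2.34 CPM, were higher in PBS replicate 1. In all, 13 of the 15 were higher (86.7%, beside 57.3% of genes at 10 CPM or more, a level that Dntt and Rag1 did not reach). The 18 NK and T cell genes summed to 101, 79.0 and 100.3 CPM, of which Nkg7 held 50.5, 29.1 and 31.8 CPM, and Cd3e had 0, 1 and 0 counts. Erythroid genes summed to 383, 443 and 510 CPM. The adult hemoglobin beta gene Beta-s held 54.3, 201 and 215 CPM of that, while both alpha copies are listed at 0. These alpha genes are near-identical copies whose levels are uncertain, so the 0 is not read as absence. Plasma cell and endothelial genes lay lowest, the former between 11.6 and 20.3 CPM over 6 genes.

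Platelet genes divided sharply between mice. Ppbp, the platelet basic protein, held 0.418 CPM in PBS replicate 1, under the floor, and 27.5 and 42.3 CPM in PBS replicates 2 and 3. Pf4, platelet factor 4, held 4.80, 14.1 and 18.5 CPM, and Tubb1, a platelet tubulin, 0.209, 4.28 and 8.68 CPM. The list sum, at 384, 370 and 409 CPM, hides this, because Nfe2, which neutrophils also express, gave 340, 258 and 237 CPM of it. Stromal genes had the same order, 27.4, 84.2 and 113 CPM in sum, with Cxcl12, the ligand of Cxcr4, at 4.59, 35.2 and 61.3 CPM. Igfbp5, in no list, followed it at 1.67, 14.5 and 23.9 CPM. Osteoclast genes were mostly at or near 0, as Calcr and Oscar had 0 counts in every library and Ctsk, cathepsin K, held 1.67, 9.55 and 3.61 CPM, while Itgb3 and Nfatc1, which other myeloid cells express, gave most of the list. Stem and progenitor genes summed to 231, 215 and 236 CPM, led by Myb at 96.1, 108 and 122 CPM and Kit at 55.3, 74.2 and 74.9 CPM. Myb and Kit were lower in PBS replicate 1, but 7 of the 11 members (63.6%, beside 57.3% of genes at 10 CPM or more) were higher.

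**Figure D3:**
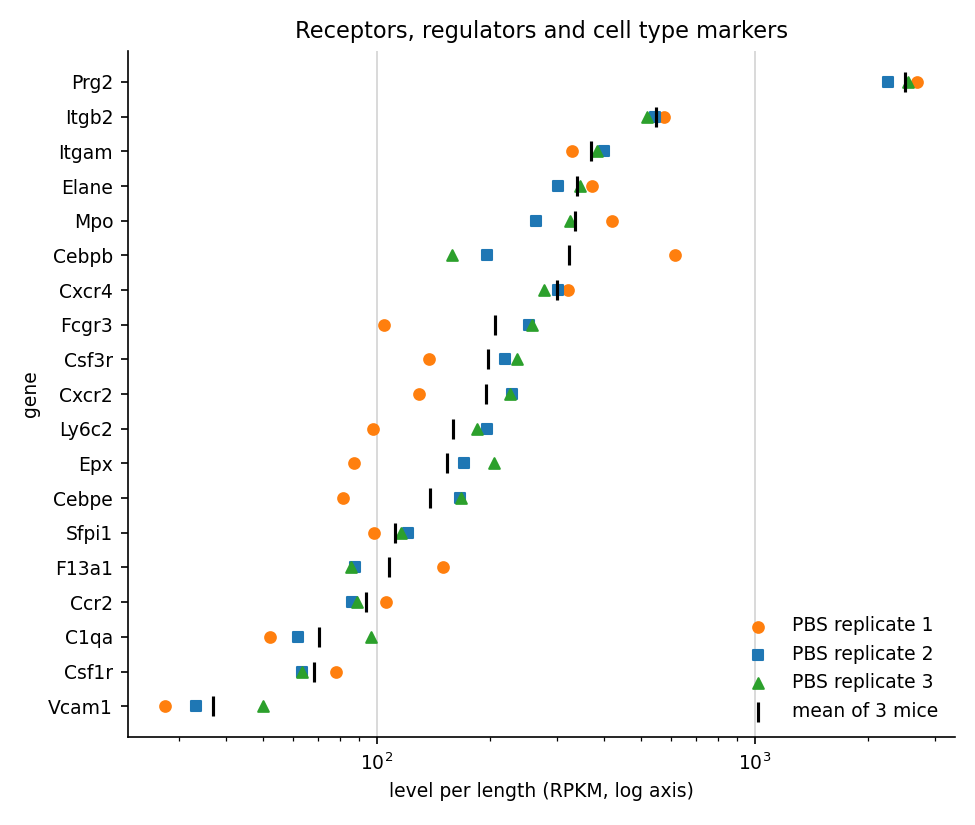
Level per length (RPKM, log axis) of receptors, transcription factors and cell type markers in each of the 3 PBS mice, with the mean as a vertical bar. Prg2 lies above all the other genes drawn, Cebpb is the one for which PBS replicate 1 lies farthest above the others, and C1qa and Vcam1 are highest in PBS replicate 3.

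Proliferation genes were well expressed. All 21 cell cycle genes were detected and summed to 3964, 3205 and 3322 CPM, with Mki67 at 905, 1137 and 1163 CPM and Top2a, which untangles replicated DNA, at 1028, 653 and 669 CPM. Of these genes 16 (76.2%) were higher in PBS replicate 1 than the mean of the others, beside 57.3% of all genes. Mki67 was among the 5 that were lower. The replication-dependent histone genes, whose RNA lacks a poly(A) tail and is kept by rRNA depletion, summed to 9156, 9557 and 9809 CPM. Of the 52 at 10 CPM or more, 37 were lower in PBS replicate 1 and 15 higher, the opposite direction to most of the cell cycle list. Their near-identical copies make single members uncertain.

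Of the 30 myeloid transcription factors, all detected, Cebpb was highest by mean RPKM. It held 924 CPM in PBS replicate 1 and 295 and 237 CPM in the others, so its first place rests on PBS replicate 1: in PBS replicates 2 and 3 Junb, at 231 and 243 RPKM, stood above its 196 and 158. Cebpa, the factor of the granulocyte-monocyte progenitor, held 137, 76.1 and 72.0 CPM, Spi1, listed as Sfpi1, 265, 326 and 313 CPM, and Irf8, the factor of monocyte fate, 166, 67.3 and 71.1 CPM. Gfi1, which restrains monocyte genes in granulocytes, held 38.8, 54.3 and 57.0 CPM. Cebpe and Gfi1 were lower in PBS replicate 1 and Cebpa, Cebpb and Irf8 higher. Fosl2, at 427, 425 and 426 CPM, was among the 10 genes of lowest CV at 100 CPM or more.

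Receptors for cytokines formed one of the steadiest lists. Their median CV was 7.45% over 24 genes, against 14.3% for all genes at 10 CPM or more. Csf2rb, a signalling chain of the GM-CSF receptor, held 322, 337 and 361 CPM, and Il17ra 527, 500 and 488 CPM. Csf3r, at a CV of 26.6%, was an exception within it. Among 22 pattern recognition receptors, all detected, Clec7a, the receptor for beta-glucan, held 155, 305 and 328 CPM and Tlr2 146, 187 and 202 CPM. Cd14 ran the other way, at 110, 50.4 and 41.6 CPM. For cytokines, Ccl6 held 513, 816 and 831 CPM, Osm 193, 294 and 314 CPM and Tnf 23.2, 35.7 and 37.1 CPM. Il12b had 0 counts in every library, and Il10, Cxcl1 and Nos2 were under the floor in at least 1 mouse, so their levels could not be told from 0 at this depth in that mouse.

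Genes that touch the themes of the study can be placed on this baseline. Thbs1, thrombospondin, held 1273, 1940 and 1924 CPM, and Vcan, the proteoglycan versican, 100.4, 60.0 and 55.6 CPM. The 2 genes ranked PBS replicate 1 in opposite ways. Scarb1, the receptor for high-density lipoprotein, stood at 62.2, 58.6 and 60.0 CPM, with almost no spread. Around it, Srebf2, a factor that drives sterol synthesis genes, was higher in PBS replicate 1 at 272, 123 and 114 CPM, Abca1, a cholesterol exporter, was highest in PBS replicate 3 at 43.0, 51.0 and 72.0 CPM, and Apoe followed the same order at 185, 210 and 283 CPM. All 22 genes of the cholesterol list were detected. Immediate early and heat shock genes summed to 7293, 5479 and 5525 CPM. Of these 20 genes 17 (85%, beside 57.3% of all genes) were higher in PBS replicate 1, such as Ier2 at 669, 227 and 208 CPM and Jun at 356, 123 and 146 CPM, while Fos stood at 1391, 1429 and 1474 CPM.

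Genes of antigen presentation and of the interferon response were expressed in these vehicle-injected mice. All 18 interferon-stimulated genes were detected and summed to 1512, 1858 and 1799 CPM. Ifitm6, a membrane protein of the family that restricts viral entry, held 563, 708 and 703 CPM and Isg15, a ubiquitin-like modifier, 14.8, 6.88 and 5.00 CPM. Of the 18 genes 12 were lower in PBS replicate 1, Isg15 not among them. For MHC class I, H2-D1 was nearly level at 1230, 1267 and 1248 CPM, while its partner chain B2m held 377, 912 and 876 CPM. For MHC class II, Cd74, the invariant chain, held 198, 201 and 243 CPM and H2-Aa 49.7, 121 and 143 CPM. Cd74 also gave most of the dendritic cell list, of which 11 of 12 genes were detected and whose Itgax, the CD11c integrin chain, held 24.9, 20.7 and 22.2 CPM.

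Cytoskeletal genes took a large share of the counts, with 51818, 50166 and 48606 CPM over 22 genes, all detected. Besides Actb and Tmsb4x, Flna, which crosslinks actin, held 4474, 5428 and 5458 CPM, Coro1a, an actin regulator of leukocytes, 1446, 1907 and 1829 CPM, and Myh9, nonmuscle myosin, 5122, 3752 and 3514 CPM. Flna and Coro1a were lower in PBS replicate 1 and Myh9 higher. Of the 17 glycolysis genes 16 were detected, summing to 5680, 5230 and 5153 CPM. Hk3, the hexokinase of myeloid cells, held 750, 642 and 632 CPM, and Ldha, lactate dehydrogenase, 596, 330 and 308 CPM. All 8 stefin and cystatin genes, inhibitors of cysteine proteases, were lower in PBS replicate 1, such as Cst3 at 217, 268 and 273 CPM, and the stefin genes among them are near-identical copies whose levels are uncertain. As a class not expected in marrow, sensory receptor genes were detected for 3 of 1495 members and summed to 19.0, 20.4 and 21.2 CPM.

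Over the 3 libraries, the spread between mice was above counting error for most genes. Over the 8041 genes with a mean of at least 10 CPM the median CV was 14.3%, with quartiles of 7.60% and 24.4%. The counting CV, the root of the mean counting variance over the mean level, had a median of 4.80%. In 87.0% of these genes the CV exceeded the counting CV. With counting error alone, a CV over 3 libraries would lie under the counting CV in more genes than over it. The median CV was 27.8% for genes at 1 to 10 CPM, 15.2% at 10 to 100, 12.2% at 100 to 1000 and 14.1% at 1000 or more, so it was no lower at 1000 CPM or more than at 100 to 1000. PBS replicate 1 was farthest from the median of the 3 in 78.1% of genes, PBS replicate 2 in 10.3% and PBS replicate 3 in 11.6%. Left with PBS replicates 2 and 3 alone, the median CV came to 3.65%. For that pair it was 4.34% against a counting CV of 4.39% at 10 to 100 CPM, 2.50% against 1.88% at 100 to 1000 and 2.89% against 0.628% at 1000 or more. With counting error alone, the median CV of 2 libraries would lie below the counting CV. The near-equal values at 10 to 100 CPM therefore do not mean that this pair differed by counting error only. The biological coefficient of variation, estimated by edgeR with no group term, was 22.1% with 3 libraries and 4.99% without PBS replicate 1. Among the 8041 genes with a mean of at least 10 CPM, 1 differed by more than 2-fold between PBS replicates 2 and 3, against 589 and 608 in the pairs with PBS replicate 1.

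**Figure D4:**
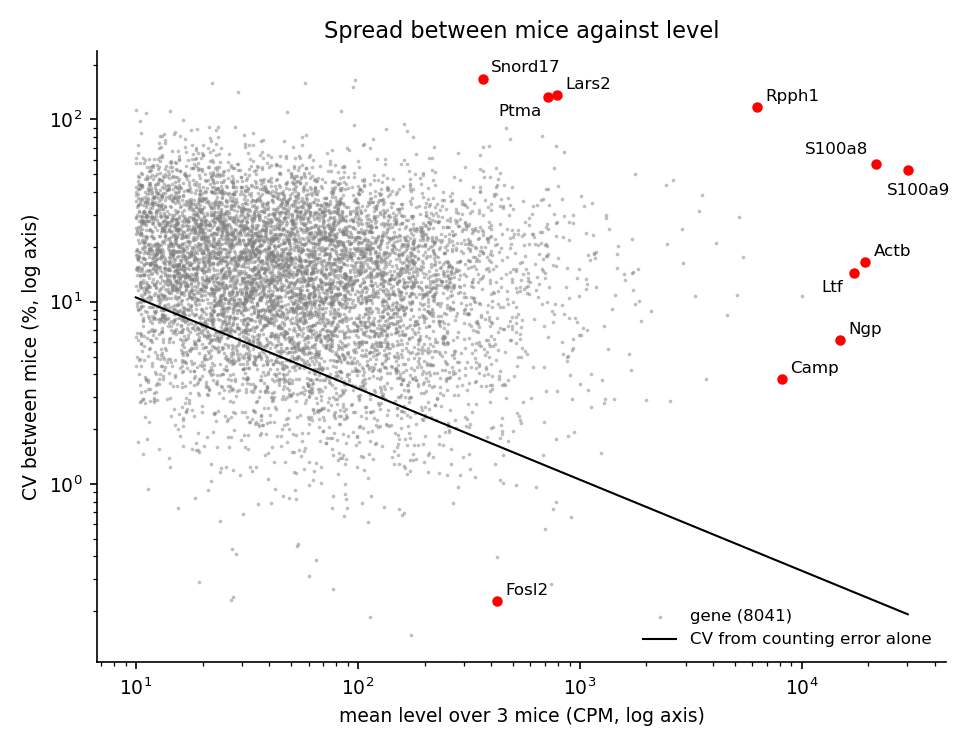
CV between the 3 PBS mice (percent, log axis) against mean level (CPM, log axis) for the 8041 genes with a mean of at least 10 CPM. The line is the counting CV, the root of the mean counting variance over the mean level. S100a8 and S100a9 lie far above the line, at 57.0% and 52.8%, while Ngp and Camp, at lower mean levels, lie at 6.14% and 3.76%, and Fosl2 lies under the line.

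Small RNAs made up 6 of the 10 genes of highest CV. Over 3 mice the CV can rise higher for a single high mouse than for a single low one, so this end of the ranking favours genes high in a single library. Some of them reached the mean of 10 CPM through PBS replicate 1 alone, such as Snord15a at 62.6, 1.74 and 1.77 CPM. Snord17, a small nucleolar RNA that guides modification of ribosomal RNA, held 1073 CPM in PBS replicate 1 and 12.8 and 10.4 CPM in the others. Snora74a, Snord15a, Snord15b and Snord22 followed the same pattern, and the snoRNA genes as a class summed to 1955, 111 and 110 CPM. The protein-coding genes among the 10 were Lars2, a mitochondrial leucyl-tRNA synthetase, at 2028, 238 and 110 CPM, and Ptma, prothymosin alpha, at 1824, 192 and 144 CPM. Rpph1 held 14702, 2299 and 1797 CPM. In all, 274 genes (3.41%) had a CV over 50%, PBS replicate 1 was the farthest mouse in 268 of them, and it lay above the mean of the others in 226 and below it in 48. This split is partly built in, because a CV over 50% takes a smaller fold for a single high mouse than for a single low one. Genes can also reach a mean of 10 CPM through PBS replicate 1 alone, as 0610039K10Rik did at 23.2, 3.41 and 3.55 CPM. No direction is therefore read from the split for PBS replicate 1. The share of Rn45s was highest in the same library, and its part in these differences was not tested. Over 5 groups of genes by exon length, the median log2 ratio of PBS replicate 1 over the mean of the others went from 0.15 in the shortest to 0.02 in the longest. The part of length was not tested either.

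At the other end, 1133 genes (14.1%) had a CV under 5%. That count depends on PBS replicate 1. For PBS replicates 2 and 3 alone the median CV itself was under 5%, at 4.34% for 10 to 100 CPM, 2.50% for 100 to 1000 and 2.89% for 1000 or more. Among genes of at least 100 CPM the lowest CV belonged to Arhgef18, a guanine nucleotide exchange factor, at 0.149%, beside a counting CV of 2.54%, and as the lowest of many it was chosen for that value. Psma1, a proteasome subunit, Adrbk1, the kinase that desensitises G protein-coupled receptors, Laptm5, a lysosomal protein of leukocytes, and Son, a splicing cofactor, were also among the 10. Adrbk1 stood at 742, 740 and 738 CPM and Laptm5 at 699, 704 and 697 CPM. Some genes often used as references were low. Gapdh held 8.14, 8.50 and 9.57 CPM and Ppia 2.30, 1.55 and 2.15 CPM, and Eno1 is listed at 0. These genes have many processed pseudogenes or near-identical copies, and how reads that fit several places were counted is not given in the sources used here, so their levels are uncertain. Actb, at 23044, 17996 and 17097 CPM, had a CV of 16.5%.

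**Figure D5:**
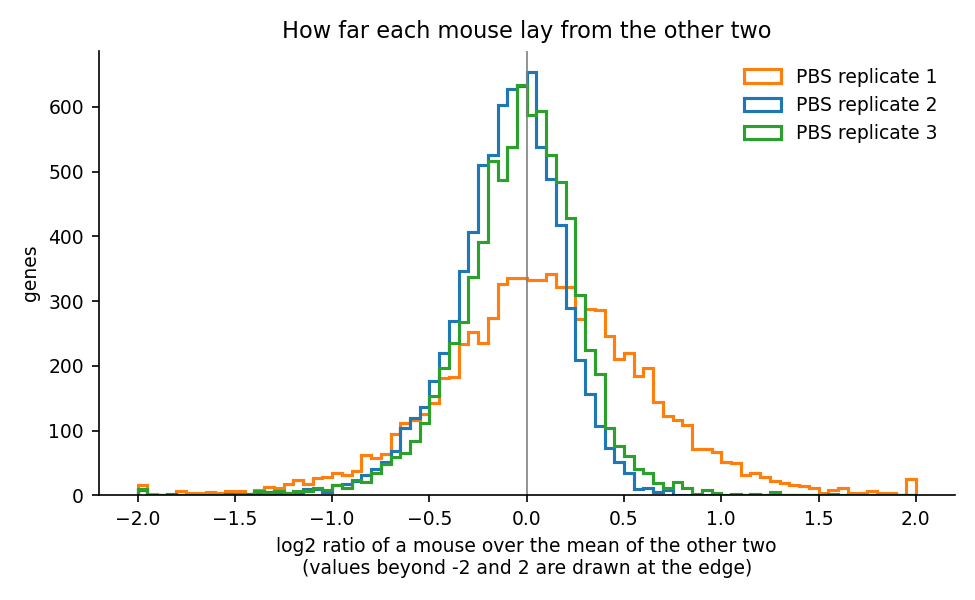
Histogram over 8041 genes of the log2 ratio of each PBS mouse over the mean of the other two; values beyond 2 in either direction are drawn at the edge. The curve of PBS replicate 1 is the widest, and its median lies at 0.09.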

How the data were processed

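Stranded total RNA-seq with rRNA depletion was performed on CD11b+ marrow cells of 3 PBS mice, from 200 ng of RNA and single-end reads of 75 bases. Values are as the authors deposited them, raw read counts without normalization for 23337 genes on mm10, made from trimmed reads filtered for quality and rRNA. The submitters' processing notes name cutadapt 1.13, STAR, HTSeq 0.6.1p1 and DESeq2. RNA was extracted with Trizol per the labels and with RNeasy per the methods. Libraries were grouped by their labels.

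CPM were computed on the total without Rn45s, and RPKM on the exon union of GENCODE for genes of the same assembly, which gave a length for 98.0% of genes. Ranks by RPKM left out genes under 200 bases of exon. Log2 ratios used a pseudocount of 0.5 CPM. Detection meant at least 3 counts. Without molecular identifiers, this floor speaks to counting error alone. Dispersion was estimated in edgeR 4.0.16 (R 4.3.3), after TMM scaling, and tested on simulated data. DESeq2 1.42.0 size factors were an alternative.

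The 41 gene lists hold 527 genes, of which 523 are in the counts, 15 of them under an older symbol. The members and lists were chosen with earlier results of these data known. Genes named are the 30 highest by mean CPM, the 20 highest by RPKM, the 10 of highest and of lowest CV (the latter from 100 CPM), the 10 farthest in each direction in each mouse, list members, Thbs1 and Vcan. Promoters came from RefSeq, GRCm38.p6. Some items are not reported here. Alternatives covered the scaling, the filter, the length, the median and each replicate left out.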

Additional observations from a re-analysis of the deposited data

How the results depend on the processing

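Scaling changed little. With TMM factors or DESeq2 size factors the median CV was 14.0% under each, and the biological coefficient of variation 22.1% with the latter. For 56 gene and list levels, all stayed within 1 SD of the main value under TMM, DESeq2 size factors, and without small RNA and hemoglobin genes, and 15 moved by more when Rn45s was kept in the total. The median of 3 values always lies within 1 SD of their mean, so it tests no stability: S100a9 was 30089 CPM by the mean and 39182 CPM by the median. The share of counts in the 10 highest genes of a library was 14.2% on average, and 20.4% with Rn45s in the total, since Rn45s is then one of the 10. PBS replicate 1 decided the spread: leaving out one replicate gave a median CV between 3.65% (without PBS replicate 1) and 16.7%, and a biological coefficient of variation between 4.99% (without PBS replicate 1) and 27.6%. The same settings gave 12338 to 13473 detected genes and 13.3% to 15.5% for the share. Of the 100 highest genes by mean CPM, 93 to 95 were shared with the list made without one replicate. With the length of the longest transcript, Actb moved from 7234 to 10093 RPKM, which places it under Camp but above Lyz2 by the mean, and S100a8 from 31168 to 43435 RPKM, which places it above Ngp in PBS replicate 1 too. No paired analysis was possible because there is a single group. With 3 mice and the smallest total in PBS replicate 1, low genes in that library are the least precise values.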
